A study of Homo sapiens with 4 samples.

Results

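The 8 genes TCP1, CCT2, CCT3, CCT4, CCT5, CCT6A, CCT7 and CCT8 encode the subunits of TRiC, the cytosolic chaperonin also called CCT. They were picked by name among the 51136 rows of the expression table, each matched exactly 1 row, and all 8 were among the 15504 genes that passed the filter on low values and were tested. The study compared A549 cells, an established human non-small cell lung cancer line, after transfection with a control small interfering RNA (si-control) or with one against DLX6 (si-DLX6), a homeobox transcription factor. Each group had 2 RNA-seq libraries, the si-control cells labelled WT and the si-DLX6 cells labelled DLX6 knockdown, and both were grown alike in serum-containing medium. The labels also name an adipogenic differentiation treatment for all 4 libraries, which the transfection protocol does not mention. No source used here gives the dose, the time after transfection or the sequence of the small interfering RNA. Nothing in the labels ties a group's libraries to separate cultures, so that p-values measure only a spread between libraries that may be technical.

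TRiC is a barrel of 2 stacked rings, and each ring holds 1 copy of each of the 8 related subunits in a fixed order. It encloses newly made proteins in its chamber and closes over them with the use of ATP, and actins and tubulins depend on it to reach their folded form. Prefoldin hands such substrates over, phosducin-like proteins act as cofactors, and the tubulin cofactors take up tubulins that TRiC has released. Because the subunits work at equal numbers in the complex, the transcript levels of the 8 genes are given first against each other and then between the groups.

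Library totals recovered from the values lay between 9678221 and 12075285 reads. Recovered reads in genes made up 97.9% to 98.1% of them, too low a share where a row's reads lost a common factor. DLX6 itself was at 3.27 and 3.47 FPKM (reads scaled by gene length and library total) in si-control and at 0.916 and 0.450 FPKM in si-DLX6. That is 74 and 63 against 18 and 9 reads, a log2 fold change of -1.39 with an SE of 0.20 (limma, Benjamini-Hochberg adjusted p = 0.00859). The 6 epithelial markers summed to 524 to 614 FPKM, nearly all of it KRT18 and KRT8. KRT7 was at only 0.589 to 1.33 FPKM, and CDH1, EPCAM and KRT19 stayed under 0.5 FPKM in every library. Most of these markers were thus near 0. The name A549 is taken from the labels, and the identity of the cells was not tested. Of 4 alveolar type II markers 3 were at 0 in all libraries, and NKX2-1 reached at most 0.0884 FPKM. Adipocyte markers summed to 1.15 and 1.57 FPKM in si-control and 2.06 and 2.13 FPKM in si-DLX6, mostly PPARG, with ADIPOQ and LEP at 0 throughout. Fibroblast markers summed to 0.283 and 0.343 FPKM in si-control and 0.759 and 0.773 FPKM in si-DLX6, with LUM at 0 in every library. Neither the adipocyte nor the fibroblast sums overlapped between the groups. The share of all genes higher in both si-DLX6 libraries was not counted, and 27.9% of genes tested were lower in both. PPARG alone was at 1.15 and 1.49 FPKM in si-control and 1.82 and 2.13 FPKM in si-DLX6. No single fibroblast marker exceeded 0.467 FPKM. COL1A1 was at 0.112 and 0.105 FPKM in si-control and 0.467 and 0.380 FPKM in si-DLX6. DCN overlapped, at 0.145 and 0.135 against 0.0417 and 0.205 FPKM. Leukocyte markers summed to 0.356 to 0.505 FPKM, with 3 of 5, PTPRC among them, at 0 in every library. The part of these sums in the results on TRiC was not tested. In bulk RNA, more cells of a type and more RNA per cell cannot be told apart.

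On GRCh38 (GENCODE release 29) the 8 genes lie on 7 chromosomes, so they are not a cluster. TCP1 lies at chr6:159778498-159789749, CCT2 at chr12:69585334-69601570, CCT3 at chr1:156308968-156367873 and CCT4 at chr2:61868089-61888804. CCT5 lies at chr5:10249921-10266412, CCT6A at chr7:56051630-56063989, CCT7 at chr2:73233420-73253021 and CCT8 at chr21:29055805-29073797. TCP1, CCT3, CCT4 and CCT8 are on the minus strand and the other 4 are on the plus strand. RefSeq windows (GRCh38.p14) of 250 bases before to 50 bases after a start site were found for 7 of the 8 genes, all but CCT6A, with 9 windows in all. Those shown belong to the subunit that changed most (CCT2), the least abundant (CCT8), the most abundant (CCT3) and the founding member (TCP1). Capitals mark CCAAT and CGGAAG, the core bound by ETS factors, or on the other strand ATTGG and CTTCCG.
CCT2 promoter, chr12:69585209-69585508, plus strand: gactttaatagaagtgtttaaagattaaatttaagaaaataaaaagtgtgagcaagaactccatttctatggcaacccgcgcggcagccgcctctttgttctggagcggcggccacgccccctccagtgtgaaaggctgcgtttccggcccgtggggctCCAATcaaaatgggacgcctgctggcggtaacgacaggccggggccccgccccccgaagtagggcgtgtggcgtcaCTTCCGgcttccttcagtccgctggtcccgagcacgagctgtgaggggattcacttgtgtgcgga
CCT8 promoter, chr21:29073599-29073898, minus strand: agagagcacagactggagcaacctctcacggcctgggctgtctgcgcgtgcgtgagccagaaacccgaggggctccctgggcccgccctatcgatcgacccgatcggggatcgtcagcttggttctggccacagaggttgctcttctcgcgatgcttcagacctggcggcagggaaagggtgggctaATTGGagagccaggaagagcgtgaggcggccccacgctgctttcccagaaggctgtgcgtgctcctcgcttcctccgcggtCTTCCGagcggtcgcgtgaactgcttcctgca
CCT3 promoter, chr1:156338243-156338542, minus strand: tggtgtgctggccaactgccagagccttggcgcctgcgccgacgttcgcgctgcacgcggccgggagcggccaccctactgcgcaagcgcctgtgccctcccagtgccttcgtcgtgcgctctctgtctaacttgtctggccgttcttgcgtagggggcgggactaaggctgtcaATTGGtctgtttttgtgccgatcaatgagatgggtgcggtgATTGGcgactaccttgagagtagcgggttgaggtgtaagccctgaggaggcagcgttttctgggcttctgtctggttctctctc
TCP1 promoter, chr6:159789553-159789852, minus strand: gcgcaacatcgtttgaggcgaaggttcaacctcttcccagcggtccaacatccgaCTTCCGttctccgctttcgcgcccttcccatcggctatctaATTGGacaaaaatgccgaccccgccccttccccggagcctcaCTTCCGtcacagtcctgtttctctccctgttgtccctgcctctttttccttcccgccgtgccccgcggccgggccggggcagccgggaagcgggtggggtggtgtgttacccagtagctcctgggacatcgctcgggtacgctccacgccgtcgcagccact
CCAAT was found on either strand in 4 of the 9 windows, from 4 of 7 genes (TCP1, CCT2, CCT3 and CCT8), and in 34.6% of all 35116 windows. CGGAAG was found in 6 of the 9 windows, from 5 of 7 genes (TCP1, CCT2, CCT5, CCT7 and CCT8), and in 19.5% of all windows. In the CCT2 window shown, CCAAT began 91 bases before the start site and CGGAAG 15 bases before it, and in CCT8 they lay 63 bases before and 18 bases after it. The CCT3 window held CCAAT 75 and 34 bases before the start, and TCP1 held it 154 bases before. GGGCGG, the GC box, was found in 6 of the 9 windows, from 5 of 7 genes (TCP1, CCT2, CCT3, CCT7 and CCT8), and in 45.0% of all windows. GAANNTTC, a core of the heat shock element, was found in 2 of the 9 windows, that of TCP1 and the second of CCT2, and in 6.77% of all windows. CACGTG, the E-box bound by MYC with MAX, was in none of the 7 genes' windows and in 7.26% of all windows. These are matches of letters in the window, not sites of binding.

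In both si-control libraries the 8 transcripts had the same order of level, from CCT3 down to CCT8. CCT3, the gamma subunit, was highest at 522 and 528 FPKM, and CCT7, the eta subunit, followed at 409.9 and 428 FPKM. TCP1, the alpha subunit and the gene after which the family is named, was at 312 and 350 FPKM, and CCT5, the epsilon subunit, at 286 and 280.1 FPKM. CCT2, the beta subunit, was at 227 and 245 FPKM. The neighbours CCT4 and CCT6A, the delta and zeta subunits, overlapped at 213 and 223 FPKM and at 193 and 218 FPKM, so their order does not differ beyond the spread of 2 libraries. No other pair of neighbours overlapped. CCT8, the theta subunit, was lowest at 145 and 155 FPKM. The ratio of the highest to the lowest subunit was 3.60 and 3.40 in si-control, and 4.36 and 4.41 in si-DLX6. These are transcript levels, per gene length as the authors set it, and the proteins were not measured.

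**Figure D1:**
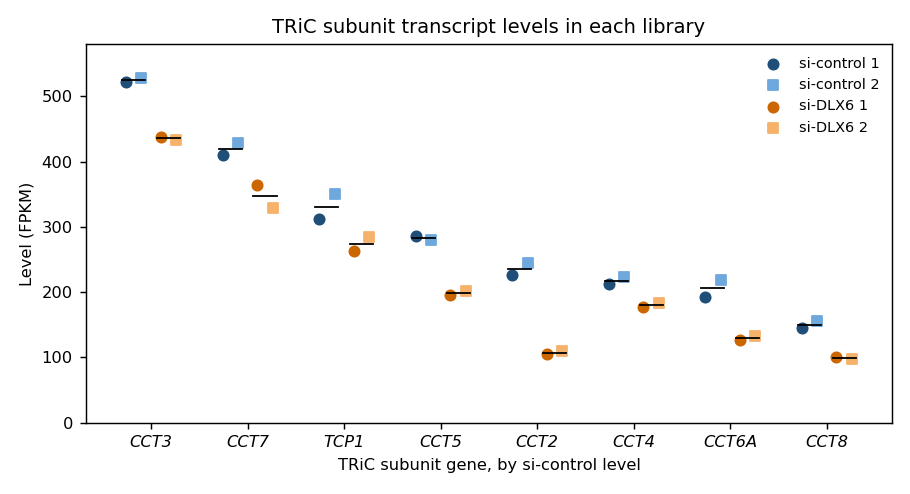
Level of each TRiC subunit gene in FPKM (vertical axis, from 0) in the 2 si-control and 2 si-DLX6 libraries, 1 point per library and a horizontal line at each group mean, with genes ordered by si-control level. Every gene has both si-DLX6 points under both si-control points, and CCT2 drops from 227 and 245 to 105 and 109 FPKM.

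All 8 subunit transcripts were lower in both si-DLX6 libraries than in both si-control libraries. Over the 15504 genes tested, the same held for 27.9%. By limma with Benjamini-Hochberg adjustment over all genes tested, 4 of the 8 fell (CCT2, CCT6A, CCT8 and CCT5) and none rose, where 9.49% of all genes fell, 10.2% rose and 19.6% changed in either direction. The balance over all genes turned with the scaling: 1471 fell and 1575 rose as deposited, against 1629 and 1251 with median-of-ratios and 1514 and 1274 with upper-quartile scaling, and 4 subunits fell under each. Without si-control replicate 2, the calls over all genes went from 3046 to 2006. Of the 821 genes whose mean reached 100 FPKM, as those of all 8 subunits did, 15.6% fell. The median log2 fold change was -0.39 over the 8 subunits and 0.05 over all genes tested. The summed level of the 8 genes was 2308 and 2427 FPKM in si-control and 1771 and 1773 FPKM in si-DLX6, with means of 2368 ± 84.5 and 1772 ± 1.27 FPKM (SD, n = 2 each), so the si-DLX6 sum was 74.8% of control. For any single gene the smallest two-sided exact permutation p that 2 against 2 libraries allow is 0.333, so calls rest on the spread that limma shares across genes.

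CCT2 fell most. This subunit pairs with its own copy in the other ring where the rings meet, and mutations in it are known from an inherited retinal disease. It was at 227 and 245 FPKM in si-control and 105 and 109 FPKM in si-DLX6, from 5983 and 5185 against 2412 and 2546 reads. Both si-DLX6 libraries were under the lower si-control library by more than the spread within either group. The means were 236 ± 13.0 and 107 ± 2.81 FPKM (SD, n = 2 each), 2.20-fold lower in si-DLX6, and the log2 fold change was -1.13 with an SE of 0.10 (limma, adjusted p = 0.00312). Reads per library total were 45.7% of control, with an exact 95% interval of 44.1% to 47.2% that covers counting error only and did not overlap the interval of any other subunit.

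CCT6A, CCT8 and CCT5 fell less far. CCT6A, which like CCT2 meets its own copy across the rings, was at 193 and 218 FPKM in si-control and 127 and 133 FPKM in si-DLX6, and its log2 fold change was -0.65 with an SE of 0.11 (limma, adjusted p = 0.0114). CCT8, whose level is known to bear on assembly of the complex in human pluripotent cells, was at 145 and 155 FPKM in si-control and 100.5 and 98.4 FPKM in si-DLX6. Its log2 fold change was -0.59 with an SE of 0.09 (limma, adjusted p = 0.0114). CCT5, in which a mutation is known to cause a hereditary sensory neuropathy, was at 286 and 280.1 FPKM in si-control and 195 and 202 FPKM in si-DLX6, with a log2 fold change of -0.51 and an SE of 0.10 (limma, adjusted p = 0.0168). For each of the 3, the groups were separated and the gap exceeded the difference between libraries of a group. By reads per library total, CCT6A was at 63.7% of control (61.9% to 65.6%), CCT8 at 66.4% (64.1% to 68.9%) and CCT5 at 70.0% (68.6% to 71.6%), exact 95% intervals. The CCT6A and CCT8 intervals overlap, as do those of CCT8 and CCT5, while those of CCT6A and CCT5 do not. They cover counting error only and leave out the spread between libraries, so they do not show that CCT6A fell farther than CCT5. Calls of these 3 depend on the filter: with all 28637 rows above 0 kept in the fit, their limma adjusted p were 0.0648 for CCT6A, 0.0553 for CCT8 and 0.0650 for CCT5, and CCT2 stayed under 0.05 at 0.0473. CCT5 also missed the threshold without si-control replicate 1, at 0.0526.

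TCP1, CCT3, CCT4 and CCT7 did not pass the test, and their log2 fold changes were all close to -0.27. TCP1 was at 312 and 350 FPKM in si-control and 263 and 284 FPKM in si-DLX6 (adjusted p = 0.131, limma). CCT3 was at 522 and 528 against 438 and 434 FPKM (adjusted p = 0.110, limma). CCT4, first known for a sensory neuropathy mutation in the rat, was at 213 and 223 against 178 and 184 FPKM (adjusted p = 0.0952, limma). CCT7 was at 409.9 and 428 against 365 and 329 FPKM (adjusted p = 0.122, limma), with the widest spread among the si-DLX6 libraries. Groups were separated for each of the 4, although for TCP1 the gap between them was smaller than the difference between the si-control libraries. Reads per library total were 83.3% (81.5% to 85.2%), 83.0% (81.5% to 84.5%), 83.2% (80.9% to 85.5%) and 82.9% (81.1% to 84.7%) of control for TCP1, CCT3, CCT4 and CCT7, exact 95% intervals for counting error only. Those 4 intervals all overlap each other and lie above the upper ends of the intervals of the 4 that fell, 71.6% at most. A call missed at this spread does not show that the 4 transcripts were equal in both groups.

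**Figure D2:**
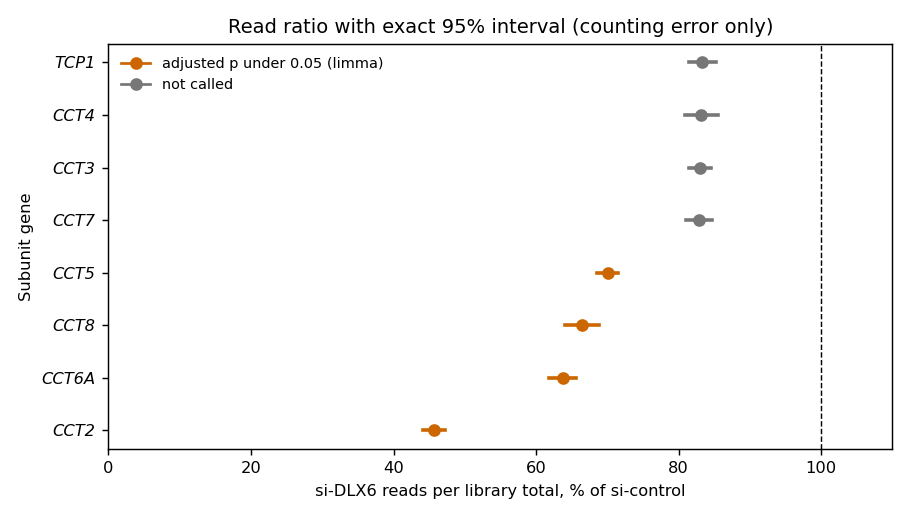
Reads per library total in si-DLX6 as a percentage of si-control for each subunit (points) with exact 95% intervals for counting error (bars), and a dashed line at no difference. CCT2 stands alone at 45.7%, CCT5, CCT6A and CCT8 lie between 63.7% and 70.0%, and the other 4 lie near 83.0%.

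The proportions among the subunits changed with their unequal falls. CCT2 made up 9.82% and 10.1% of the summed FPKM of the 8 genes in si-control and 5.94% and 6.16% in si-DLX6. Its rank went from 5 in both si-control libraries to 7 in both si-DLX6 libraries, below CCT4 and CCT6A. Against CCT3 it was at 43.4% and 46.5% in si-control and at 24.0% and 25.2% in si-DLX6. CCT3 made up 22.6% and 21.7% of the sum in si-control and 24.7% and 24.5% in si-DLX6. CCT6A went from 8.37% and 8.99% to 7.16% and 7.52%, CCT8 from 6.29% and 6.40% to 5.67% and 5.55%, and CCT4 from 9.22% and 9.17% to 10.0% and 10.4%. CCT5, although lower in level, had shares of 12.4% and 11.5% in si-control and 11.0% and 11.4% in si-DLX6, close to each other. Shares sum to the whole, so a fall of one subunit raises the others.

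**Figure D3:**
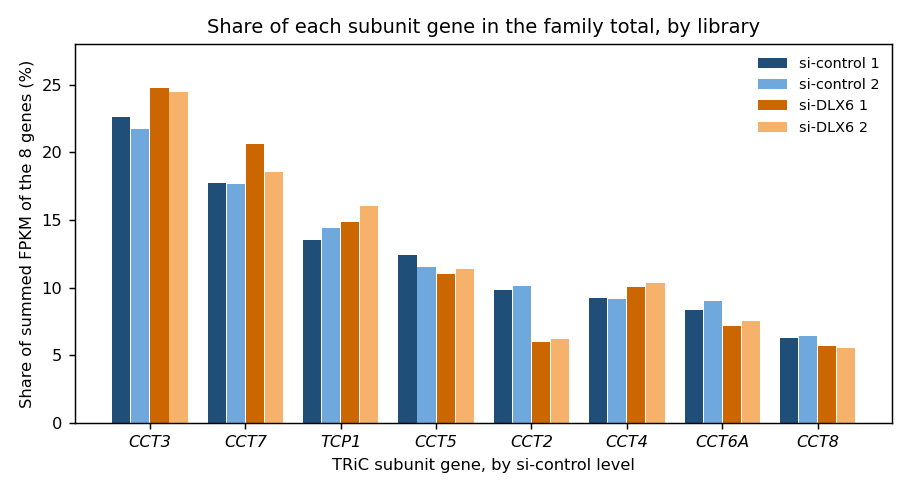
Share of each subunit gene in the summed FPKM of the 8 genes (percent, bars from 0), 1 bar per library. CCT2 goes from 9.82% and 10.1% in si-control to 5.94% and 6.16% in si-DLX6, and CCT3 keeps the largest share in every library.

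Reads of near-identical copies and overlapping genes limit some of these values. Rows named as copies, by the subunit's symbol (CCT6 for CCT6A) followed by P and a number, were found for every subunit but CCT2. Such names do not say whether a copy is processed. Copy reads came to 15.5% to 16.4% of those of CCT8, 9.04% to 11.8% of CCT6A and 7.41% to 8.72% of TCP1. For CCT5 they came to 3.71% to 4.58%, for CCT7 to 0.875% to 1.31%, and for CCT3 and CCT4 to at most 3 reads a library. Of the copies that were tested, CCT8P1 (log2 fold change -0.55, adjusted p = 0.0180), CCT5P1 (-0.63, 0.0259) and CCT6P2 (-0.51, 0.0224) fell by limma. The others tested, TCP1P1, TCP1P2, TCP1P3, CCT5P2, CCT6P1, CCT6P3 and CCT7P1, did not pass. Their log2 fold changes ran from -0.47 for CCT5P2 to 0.08 for CCT6P3. Over all genes tested, 9.49% fell. Whether reads of the copies come from the copies or from the subunits was not tested. With copy reads added to their subunit, a choice made after seeing the data, the same 4 subunits passed the test and the CCT6A fold change was -0.63. The 3′ end of TCP1 overlaps ACAT2 on the other strand, and use of strand is not given. ACAT2 was at 2066 and 1821 reads in si-control and 1143 and 1155 in si-DLX6, against 9239 and 8302 and 6777 and 7432 reads for TCP1. CCT3 overlaps TSACC (9 to 21 reads) and CCT4 overlaps COMMD1 (157 to 233 reads), with CCT3 at 10415 reads or more and CCT4 at 4374 or more. Small nucleolar RNAs within the genes were at or near 0: SNORA20 in TCP1 had 0 and 0 reads in si-control and 3 and 4 in si-DLX6, SNORA29 had at most 1, and SNORA15 in CCT6A had none.

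Over 9 lists of partners and relatives of TRiC, 69 of 72 genes were tested. Of all genes tested, 9.49% fell and 10.2% rose. The lists were chosen with earlier results of these data known, so a comparison with all genes is not an independent contrast. Of the 69 genes, 19 fell and 2 rose, with a median log2 fold change of -0.16. Without si-control replicate 1 the total of both directions went from 21 to 12. Of 6 prefoldin subunits only PFDN2 passed the test, falling from 106.9 and 97.6 FPKM to 81.6 and 65.2 FPKM (log2 fold change -0.48, limma adjusted p = 0.0478). None of the 3 phosducin-like genes tested passed, and neither did any of the 3 chaperonin-like genes tested. CCT6B, the testis paralog of CCT6A, was at 0.272 to 0.452 FPKM and was not tested. The tubulin cofactors TBCA (-0.51, adjusted p = 0.0304) and TBCE (-0.57, adjusted p = 0.0223) fell by limma, 2 of 6. Among 9 genes of the PAQosome, a co-chaperone assembly that shares prefoldin-like parts, UXT fell (-0.63, limma adjusted p = 0.00954).

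Of 11 tubulins, which are obligate substrates of TRiC, 8 fell, with a median log2 fold change of -0.57 over all 11, where 9.49% of all genes tested fell, and 15.6% of those with a mean of 100 FPKM or more. No actin or actin-related gene of 5 passed the test, with a median of 0.01. TUBG1, the gamma-tubulin of spindle poles, was at 74.5 and 65.2 FPKM in si-control and 34.8 and 31.2 FPKM in si-DLX6 (log2 fold change -1.06, limma adjusted p = 0.00450). TUBB2A (-0.80, adjusted p = 0.00654), TUBB3 (-0.67, adjusted p = 0.00853), TUBB (-0.63, adjusted p = 0.0169) and TUBA1C (-0.57, adjusted p = 0.0206) fell by limma as well. ACTB and ACTG1, named after their values were seen, were at 0.19 and -0.20 on the same scale with adjusted p of 0.366 and 0.346. The difference between tubulins and actins was not tested. Among the tubulins, TUBA4A, TUBB4B and TUBB6, also named after their values were seen, did not pass by limma. TUBA4A was higher in both si-DLX6 libraries than in both si-control libraries (0.55, adjusted p = 0.0662). TUBB4B was at -0.20 (adjusted p = 0.229) and TUBB6 at 0.00517 (adjusted p = 0.976). Because the lists were chosen with earlier results of these data known, the tubulin counts set against all genes are not an independent contrast. Whether tubulin genes share reads was not tested.

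Of 19 other known substrates, all tested, 3 fell and 2 rose, with a median log2 fold change of 0.11. These counts are near the background, since 9.49% of all genes tested fell, 10.2% rose and 19.6% changed in either direction. PLK1 (-0.76, adjusted p = 0.00680), a mitotic kinase, WRAP53 (-0.49, adjusted p = 0.0202), which guides telomerase RNA, and CDC20 (-0.46, adjusted p = 0.0264), an activator of the anaphase-promoting complex, fell by limma. VHL, the substrate-binding part of a ubiquitin ligase, rose from 8.21 and 8.25 FPKM to 12.4 and 12.4 FPKM (0.54, limma adjusted p = 0.0265). Of 5 transcription factors linked to chaperonin genes, MYC fell from 104.5 and 97.7 FPKM to 63.1 and 61.7 FPKM (-0.69, limma adjusted p = 0.00801) and its partner MAX fell too (-0.47, adjusted p = 0.0371). HSF1, the main heat shock factor, was at 77.0 and 68.3 FPKM in si-control and 94.9 and 88.6 FPKM in si-DLX6 and did not pass (adjusted p = 0.0707, limma). It is named after its values were seen. The mitochondrial chaperonin HSPD1, the group I counterpart of TRiC, fell from 382 and 404 FPKM to 67.2 and 65.8 FPKM (-2.55, limma adjusted p = 0.000542), farther than any TRiC subunit, and its co-chaperonin HSPE1 fell from 125 and 122 to 81.6 and 76.1 FPKM (-0.65, adjusted p = 0.00905).

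**Figure D4:**
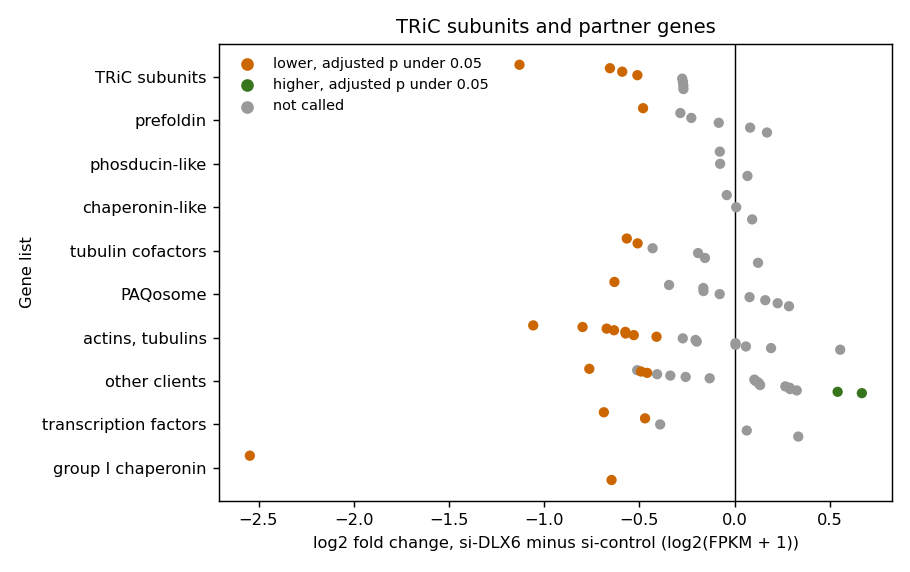
Log2 fold change (si-DLX6 minus si-control, on log2(FPKM + 1)) of each tested gene, 1 point per gene, by list, with genes that fell in orange, rose in green and did not pass in grey. All 8 TRiC points are below 0 and CCT2 is farthest at -1.13, while the other clients lie on both sides of 0.

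The mean centred profile of the 8 subunits on the log2 scale was 0.21 and 0.29 in si-control and -0.26 and -0.24 in si-DLX6. Of the genes that had a symbol and reached 10 FPKM on average, the 6 nearest to it were METAP1, CCNB1IP1, NAE1, ALKBH2, IQCB1 and RBM22, at Euclidean distances of 0.0136 to 0.0280 over the 4 libraries. Their log2 fold changes lay between -0.48 and -0.52. With 4 libraries in 2 groups, the measure mostly ranks genes by the size of the difference. The subunits' own distances from this mean ran from 0.0844 for CCT5 and 0.1004 for CCT8 to 0.251 for CCT7 and 0.634 for CCT2. Each of the 8 subunits was thus farther from their mean than those 6 genes were. The 6 were picked for the smallest distances among many genes, so this says nothing about how alike the subunits are.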

How the data were processed

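Each transfected group of A549 cells gave 2 RNA-seq libraries, made from total RNA with a SMARTER mRNA-Seq preparation, according to the labels' protocols. A table of 51136 rows was deposited, in which every library has a column. The deposited values were read as FPKM, reads over gene length and library total: no header states a unit, but each gene's values come in steps of the size that 1 read would give. The submitters' processing notes list GRCm38 and mm10 for all samples although the rows carry human symbols, so no coordinates come from the table. No source used here gives the aligner, the counter or any use of strand.

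Whole reads were recovered from the steps for 28637 of 28637 rows above 0 (tolerance 1e-07 reads), up to a factor common to all values of a row. Library totals came from mitochondrial genes, 11 of 13 of which gave the same total. For 1476 rows, whose implied length was not whole, a common factor was restored, and CCT6A reads were multiplied by 2 because the implied length of 1332 bases was below its longest coding length of 1593 bases.

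Values were tested as log2(FPKM + 1) by limma-trend with no term other than group, in limma version 3.58.1 under R 4.3.3. A gene entered the fit if 2 or more libraries reached 1 FPKM, which 15504 did. Benjamini-Hochberg adjustment ran over all of them, with a call made below 0.05. The added 1 FPKM makes the fold changes of low genes too small. Read intervals are exact at 95% (SciPy 1.17.1) and cover counting error only.

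Named were the 8 subunits, in each list all called genes or the 5 with the smallest p, the 6 nearest profiles, copies and small RNAs of the subunits, and DLX6. The values of 1 gene that this rule names are not reported here. Members and lists were chosen with earlier results of these data known. Alternatives were 2 scalings, other pseudocounts and filters, a replicate block, leaving out each library, limma-voom on recovered reads, robust variances and a stricter threshold.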

Additional observations from a re-analysis of the deposited data

How the results depend on the processing

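All 104 alternative fold changes of the 8 subunits were negative, 96 on the same side of the threshold, 4 no longer past it and 4 newly past it. Many of these signs could not have come out otherwise. The other filters, the replicate block and the robust variances leave the fold change itself as it was. As the groups did not overlap for any subunit, leaving out 1 library cannot turn its sign. The median over the subunits was -0.39, against -0.44 with median-of-ratios and -0.43 with upper-quartile scaling, and -0.39 to -0.43 with 1 library left out. With all 4 libraries 4 subunits, 3046 genes and 21 partner genes were called, and fits that left out 1 library called 3 to 4 subunits, 2006 to 2954 genes and 12 to 24 partner genes. With no filter on low values 372 genes, 1 subunit and 5 partner genes were called, and at an adjusted p under 0.01 these were 658, 1 and 8. limma-voom on recovered reads called 3816 genes, the same number of subunits (4) and 24 partner genes. With the replicate number as a block, 5119 genes and all 8 subunits were called, with adjusted p of 0.0260 for TCP1, 0.0259 for CCT3, 0.0257 for CCT4 and 0.0447 for CCT7. Over the 15504 genes tested, the difference between the si-control libraries and that between the si-DLX6 libraries had a correlation of 0.20. The labels do not say that a number marks a shared culture or day, so same-numbered libraries share only a number. The cause of these changes was not tested. A left-out library leaves an arm of 1, which is assumed to vary like the other group. Every subunit had 2412 reads or more in every library, and the number of libraries, 2 a group, limits the precision.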

Other observations

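The word TCCTCA, chosen in earlier work on these same fold changes and so no independent support, was in the 3′ UTR of 0 of the 8 subunits and of 39.5% of 10746 tested genes with an annotated one. The subunits' 3′ UTRs ran from 151 to 1629 bases, against a median of 1271 over all. In the coding part the word was in CCT2, CCT5 and CCT6A, 3 of 8, and in 46.6% of the tested genes. Only the longest transcript of each gene was searched. Its coding part was 1464 bases for CCT2 and 1497 for CCT7, against longest coding lengths of 1605 and 1629. Some coding bases of both genes were thus not searched.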
